A study of Homo sapiens with 18 samples.

Results

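H19, IGF2 and 8 other genes of the insulin-like growth factor (IGF) axis were followed in human melanoma cells that overexpress the transcription factor MAFG. The 10 genes are H19, IGF2, the receptors IGF1R and IGF2R, the RNA-binding proteins IGF2BP1, IGF2BP2 and IGF2BP3, and the secreted binding proteins IGFBP2, IGFBP3 and IGFBP5. They were chosen by gene symbol among the 58870 genes of the count table, with changes measured in these same libraries already known. Their fold changes are therefore given as a description, with standard errors (SE) and without p-values. RNA-seq covered 6 conditions of 3 libraries each, 18 libraries in all: the melanoma cell lines WM164, SKMEL28 and A375, each overexpressing either MAFG or green fluorescent protein (GFP) as the control. By the study's methods the proteins were introduced with lentiviral vectors and transduced cells were selected with a drug, and the vector described for MAFG carries a tagged coding sequence behind the EF1α promoter in place of GFP. The study treats WM164 and SKMEL28 as lines with high, and A375 as a line with low, expression of the melanocyte lineage factor MITF. Each line stands for itself, and no source says that libraries of 1 condition came from separate cultures, so the spread between them may be partly technical.

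IGF2 is a secreted growth factor that signals through the receptor tyrosine kinase IGF1R, whereas IGF2R binds IGF2 and carries it to lysosomes. H19 is a long non-coding RNA transcribed from the neighbouring, oppositely imprinted gene. In most tissues IGF2 is expressed from the paternal chromosome and H19 from the maternal one, because a control region upstream of H19 binds the insulator protein CTCF when unmethylated and both genes compete for shared enhancers. Both are abundant in fetal tissue, and H19 is mostly silenced after birth. The IGFBP proteins bind IGFs outside the cell. The IGF2BP proteins, in spite of the similar name, bind mRNAs inside the cell, and IGF2 mRNA was among the first targets described. H19 is also the host of the microRNA miR-675.

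H19 (ENSG00000130600.18) lies on the minus strand of chromosome 11 from 1995166 to 2004552 of GRCh38. IGF2 (ENSG00000167244.20) lies on the same strand from 2129112 to 2158391. The 31 annotated H19 transcripts start at many sites. The most frequent one, used by 7 of them, is at 1997842, which is 141.5 kb from the IGF2 start and was taken as the H19 start site. Among the other members, IGFBP2 (216632828 to 216664436, plus strand) and IGFBP5 (216672105 to 216695549, minus strand) are neighbours on chromosome 2, and the remaining genes lie on chromosomes 3, 6, 7, 15 and 17. Transcript H19-201 has 4 exons of 1325, 135, 113 and 823 bases. Exon 1 holds both arms of miR-675, shown here because they are the small RNAs that H19 can release. Capitals mark the seed, bases 2 to 8, and the seeds of the arms differ.
hsa-miR-675-5p: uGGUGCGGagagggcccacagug
hsa-miR-675-3p: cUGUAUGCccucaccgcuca
The 5p arm is at chr11:1996800-1996822 and the 3p arm at chr11:1996768-1996787, both on the minus strand of GRCh38, and both sequences are those of RefSeq. The entry MIR675 itself had 0 counts in all 18 libraries, and libraries made for long RNA do not measure mature microRNAs.

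The part of the locus that is known to join both genes is the control region upstream of H19. In the 5 kb before the H19 start site, the CTCF core GGNGGCAG, searched on both strands, occurred 7 times, always on the minus strand. The matches are printed 5′ to 3′ with 7 bases before and 3 bases after the core, which is in capitals, since CTCF repeats in this region are the sequence through which the IGF2 and H19 genes are known to be coupled. Not every match to the short core is such a repeat.
H19 upstream 0.41 kb: ccgtgatGGTGGCAGgaa
H19 upstream 1.21 kb: gccgagaGGCGGCAGtgg
H19 upstream 2.13 kb: gccgcgcGGCGGCAGtgc
H19 upstream 2.54 kb: gctgcgcGGCGGCAGtgc
H19 upstream 2.94 kb: gccgcgtGGCGGCAGtgc
H19 upstream 4.37 kb: gccgcgcGGCGGCAGtgc
H19 upstream 4.78 kb: gccgcgcGGCGGCAGtgc
The first is at chr11:1998242-1998259 and the last at chr11:2002611-2002628. At least 1 core is present in the same window of 81.3% of 2223 gene starts on chromosome 11, and as many as 7 in 4.41%. The 4 matches at 2.13, 2.94, 4.37 and 4.78 kb also have the letters CCGCG before the core, separated by 1 base, and this longer form is present in 0.315% of the same windows. The other 3 do not have these letters. The matches are letters in the reference genome, and neither CTCF binding nor DNA methylation was measured in these libraries.

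Of the 10 members, 8 have a RefSeq promoter entry (GRCh38), while IGF2 and IGF2BP1 have none and were not searched. The H19 entry, from 2001217 to 2001516, lies upstream of the start site used above and does not cover it. All entries were searched on both strands for TGCTGA from the MAF recognition element, the AP-1 core TGANTCA, the E-box CACGTG and the M-box CATGTG. These occur in 17.3%, 7.71%, 7.26% and 11.1% of 35116 RefSeq promoters of the same length. TGCTGA was found in none of the members' entries. The E-box was found 3 times in IGF2R and 2 times in IGF2BP3. The AP-1 core and the M-box were each found 1 time in 1 of the IGF2BP2 promoters.

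The libraries held 20122172 to 39025042 counts. Levels are given as CPM, the count scaled to the TMM-normalized size of the library. MAFG counts checked the labels. MAFG mRNA was higher with MAFG than with GFP in WM164 (log2 fold change 1.04, SE 0.09, adjusted p = 6.37e-08) and SKMEL28 (0.64, SE 0.10, adjusted p = 1.28e-04), and the increase missed the threshold in A375 (0.80, SE 0.17, adjusted p = 0.0655, edgeR quasi-likelihood test with Benjamini-Hochberg adjustment). With DESeq2, MAFG passed the adjusted threshold in A375 too. The A375 libraries were at 23.7 to 32.7 CPM of MAFG with GFP and at 37.8 to 56.3 with MAFG. On the deposited TPM scale the mean of MAFG went from 2.89 to 24.5 in WM164 and from 3.96 to 17.0 in SKMEL28. In A375 it went from 4.22 to 25.2 TPM. All 8 melanocytic markers were above 3 counts in WM164 and SKMEL28 but 5 of 8 in A375, where MLANA and TYR had 0 counts in every library. The summed level of these markers was 5167 to 5488 CPM in WM164 GFP and 3325 to 3369 in WM164 MAFG libraries, 5082 to 5353 and 4453 to 4676 in SKMEL28, and 35.5 to 42.0 and 121 to 174 in A375. The sum was lower with MAFG in the lines where H19 was higher and higher in A375, but its genes did not move together. In WM164, MITF (log2 fold change −0.65), PMEL (−1.46), MLANA (−2.41), TYR (−1.55) and DCT (−1.64) were lower and S100A1 (0.40) higher by edgeR's adjusted p. In SKMEL28, MITF (−0.20), PMEL (−0.66) and TYR (−0.23) were lower and S100B (0.58) higher. In A375 only SOX10 passed (3.68), and MITF was at −0.07. Whether this marker shift has a part in the results below was not tested. Fibroblast genes summed to 23.4 to 24.2 CPM with GFP and 25.1 to 26.6 with MAFG in WM164, to 11.4 to 12.9 and 18.3 to 21.3 in SKMEL28, and to 3.12 to 5.27 and 5.22 to 6.02 in A375. Among them PDGFRA was higher in WM164 (log2 fold change 1.97), and LUM was lower in WM164 (−0.997) and higher in SKMEL28 (0.77), while COL1A2 had 1 to 7 counts with GFP and 12 to 16 with MAFG in WM164. The part of these shifts in the H19 and IGF2 values was not tested. Of the remaining marker lists, keratinocyte genes to 7.54 to 69.7, nearly all of it KRT10, endothelial genes to at most 1.03, leukocyte genes to at most 1.73 and hepatocyte or fetal liver genes to at most 0.217. In RNA from bulk cells, more cells that express a gene and more RNA per cell cannot be told apart.

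H19 was the member with the highest level per length and, beside IGF2, the largest fold change, both in WM164. H19 stood at 96.3, 86.6 and 86.6 CPM in the WM164 GFP libraries and at 2626, 2647 and 2534 CPM in the WM164 MAFG libraries (2698, 2609 and 2192 against 75046, 71612 and 81989 counts). The lowest MAFG library was far above the highest GFP library, and the 3 libraries of each arm lay close together. The means of 89.8 ± 5.62 and 2602 ± 60.3 CPM (SD, n = 3) corresponded to a 28.9-fold higher level (log2 fold change 4.86, SE 0.07). Per length, the mean H19 level rank among all 58870 genes moved from 1619 (26.9 TPM) to 88 (900 TPM).

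In SKMEL28, H19 was at 11.6, 12.8 and 11.01 CPM with GFP and at 31.8, 32.2 and 33.1 CPM with MAFG. The arms did not overlap, and the level was 2.76-fold higher (log2 fold change 1.46, SE 0.09). In A375, H19 was at 11.2, 10.1 and 10.96 CPM with GFP and at 11.5, 8.88 and 9.65 CPM with MAFG. These ranges overlapped, and the log2 fold change was −0.11 (SE 0.14). Ordered by level, WM164 MAFG came first, then WM164 GFP, SKMEL28 MAFG, SKMEL28 GFP, A375 GFP and A375 MAFG. The last 3 could not be ordered, since neighbouring ranges overlapped. With GFP, H19 was 8.34-fold higher in WM164 than in A375 and 7.64-fold higher than in SKMEL28.

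IGF2, the growth factor, was detected well above the floor of 3 counts only in WM164. It had 66, 66 and 39 counts in the WM164 GFP libraries and 1841, 1572 and 2385 in the WM164 MAFG libraries, or 2.36, 2.19 and 1.54 against 64.4, 58.1 and 73.7 CPM. The arms were far apart, and the level was 31.9-fold higher with MAFG (log2 fold change 5.00, SE 0.13, and 3.05 on the log2(TPM + 1) scale, which understates changes of low genes). Per length the mean went from 0.287 to 9.63 TPM and the rank from 14981 to 4814, so that in WM164 MAFG cells IGF2 remained well below H19 on the TPM scale.

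In SKMEL28, where H19 was higher with MAFG, IGF2 had 15, 6 and 9 counts with GFP and 8, 4 and 18 counts with MAFG. Both arms summed to 30 counts, a ratio of 0.939 after scaling with an exact 95% interval of 0.547 to 1.61 that covers counting error only. A rise of the size of that of H19 lies above this interval. The interval leaves out the spread between libraries, so it does not decide whether IGF2 rose as H19 did. In A375, IGF2 had 0, 4 and 0 counts with GFP and 0, 0 and 6 with MAFG, a ratio of 1.38 with an exact 95% interval of 0.328 to 6.67, and a change within these bounds was not detectable at this depth. IGF2 did not pass the low-count filter in SKMEL28 or A375 and was not tested in either line.

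**Figure D1:**
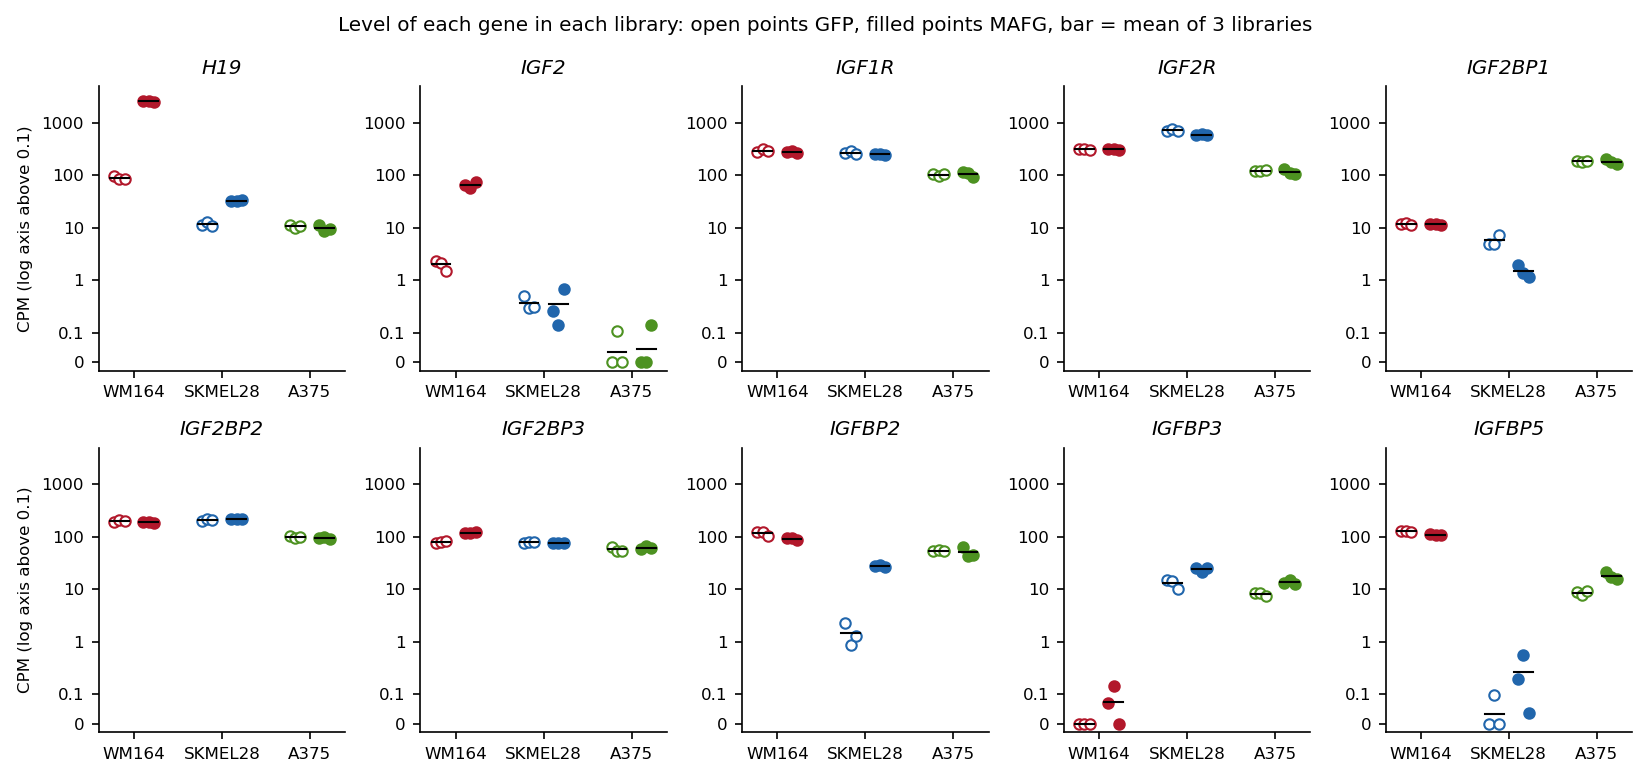
Level of each of the 10 genes in each library, in CPM on a symmetric log axis that is linear near 0, with open points for GFP, filled points for MAFG and a bar at the mean of 3 libraries. H19 and IGF2 separate widely by arm in WM164, IGFBP2 and IGF2BP1 do so in SKMEL28, and the receptors differ little between the arms.

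Whether IGF2 moves with H19 was examined between and within conditions. Between conditions of WM164 both genes went up by similar factors, and the number of IGF2 counts per 100 H19 counts was 2.45, 2.53 and 1.78 in the GFP libraries and 2.45, 2.20 and 2.91 in the MAFG libraries. These ranges overlapped. In SKMEL28 the same quantity was 4.32, 2.31 and 2.82 with GFP and 0.840, 0.445 and 2.04 with MAFG, which did not overlap. These SKMEL28 values rest on only 4 to 18 IGF2 counts per library, and their difference was not tested. The response to MAFG was larger in WM164 than in SKMEL28 for both genes, by 3.39 (SE 0.12) for H19 and by 5.08 (SE 0.71) for IGF2 on the log2 scale. The IGF2 value rests on 30 counts in either SKMEL28 arm, and IGF2 entered the model of 18 libraries through its WM164 counts. In A375 the IGF2 counts were too few to give a ratio.

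Within conditions, the deviations of log2 CPM from the condition mean gave a Pearson correlation of −0.175 between IGF2 and H19 over the 18 libraries (two-sided exact permutation test within conditions, p = 0.693, 46656 permutations, smallest possible p = 2.143e-05). Spearman's rho was −0.155 (exact permutation p = 0.629). Without the 2 libraries farthest from the median H19 deviation, A375 MAFG replicates 1 and 2, r was −0.168 (exact permutation p = 0.545) and rho −0.153 (exact permutation p = 0.629). These are 2 measures of 1 relation and were not adjusted. Within single lines r was 0.356 in WM164 (exact permutation p = 0.778), 0.0967 in SKMEL28 (exact permutation p = 0.806) and −0.374 in A375 (exact permutation p = 0.667), each over 6 libraries. The deviations had the same sign in 7 of 18 libraries. No relation between libraries of 1 condition was detected, but H19 deviated by only −0.162 to 0.203 on the log2 scale there, and the A375 values of IGF2 rest on at most 6 counts.

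**Figure D2:**
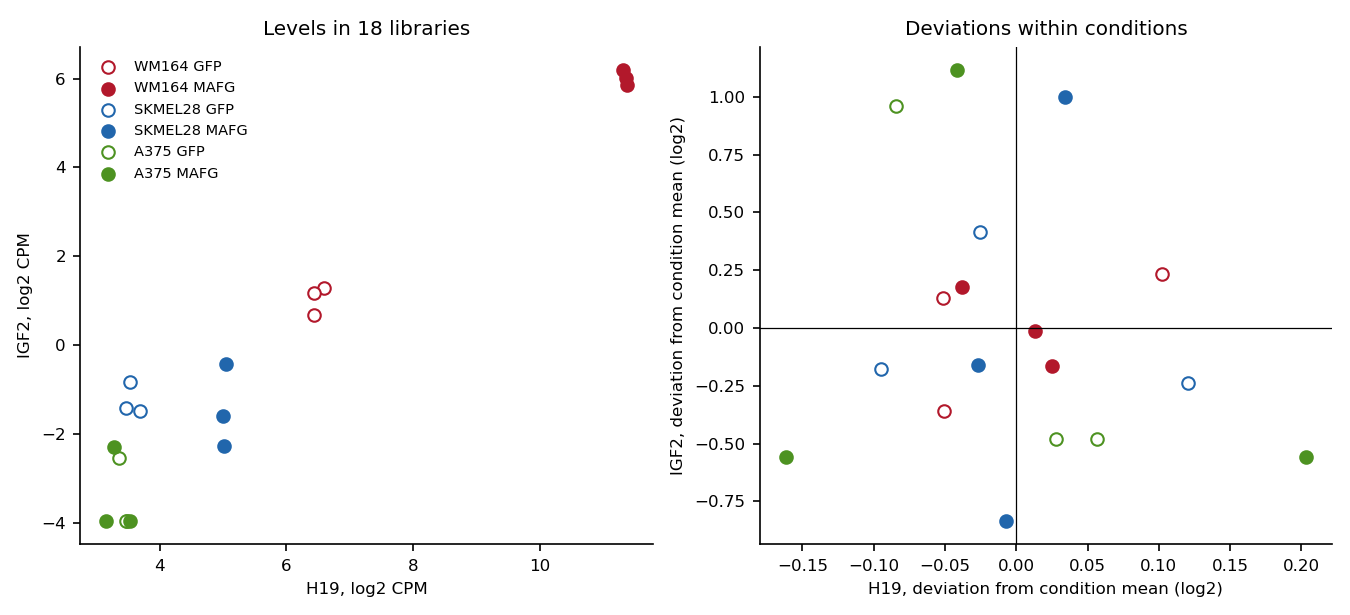
Left, log2 CPM of IGF2 against that of H19 in the 18 libraries (open GFP, filled MAFG, one colour per line); right, the deviations of both from their condition means. WM164 MAFG libraries stand alone at the top right. The SKMEL28 MAFG libraries are shifted to the right of the SKMEL28 GFP libraries without a shift upward. No relation between the deviations was detected (r = −0.175).

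Over all 18 libraries, IGF2 ranked 12 among 18766 genes by the Pearson correlation of its log2 CPM with that of H19 (r = 0.961), over levels in which the WM164 MAFG libraries stand apart for both genes. The 5 genes most like H19 were TMEM273 (r = 0.978), PLA2G5 (0.974), SNRPB2 (0.973), ASIC2 (0.973) and ATP9A (0.973). Their mean levels in WM164 went from 0.318 to 6.06 CPM for TMEM273, from 0.499 to 8.17 for PLA2G5, from 111 to 295 for SNRPB2, from 0.108 to 0.994 for ASIC2 and from 51.6 to 93.3 for ATP9A. The genes most like IGF2 were IGFL4 (r = 0.973), IRX2 (0.968), TMEM273 (0.964), DNM3 (0.963) and H19 (0.961). TMEM273 was the gene other than the query pair that appeared in both rankings.

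The members are only part of a cluster on chromosome 11 of which many genes are imprinted, so the neighbours of H19 and IGF2 were examined from 1752752 to 2992377, a stretch of 1239.6 kb with 59 genes in the table. Of these, 28 had more than 3 counts in at least 1 library. Without H19 and IGF2, 9 genes were tested in WM164, and 5 were higher and 1 lower by adjusted p, beside 31.8% of all genes tested in this line. With DESeq2, 13 were tested and 5 passed, without TSSC4. CDKN1C, which encodes a cyclin-dependent kinase inhibitor and is expressed from the maternal copy, had 98, 128 and 106 counts with GFP and 256, 233 and 313 with MAFG in WM164 (log2 fold change 1.19, SE 0.14, edgeR adjusted p = 4.34e-06). PHLDA2, another maternally expressed gene of this cluster, was at 60.9, 51.5 and 59.8 CPM with GFP and at 114, 113 and 130 CPM with MAFG (1.05, SE 0.07, edgeR adjusted p = 3.64e-09). CD81, TSSC4 and SLC22A18 were higher by 0.35 to 0.38 on the log2 scale, and CTSD, which encodes the lysosomal protease cathepsin D, was lower (log2 fold change −0.39). MRPL23, the tested gene closest to H19, had a log2 fold change of 0.02. Both changes were far smaller than those of H19 and IGF2.

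In SKMEL28, 9 neighbours besides SLC22A18AS were tested, of which 1 was higher and 2 lower by adjusted p. Of all genes tested in this line, 29.9% passed. SLC22A18AS went from 11 to 70 summed counts and passed the low-count filter through its MAFG libraries only, so its test is not read. SLC22A18, which it overlaps on the opposite strand, was lower (−0.35), so reads of this pair cannot be assigned with certainty. CD81 was lower in SKMEL28 (−0.51) and higher in WM164 (0.35). In A375, 0 of 12 neighbours passed the adjusted threshold with edgeR or DESeq2, and 1, CDKN1C, had an unadjusted p under 0.05 (edgeR) but passed the filter through its MAFG libraries only. The antisense genes IGF2-AS and MRPL23-AS1 were at 0 counts in 5 of 6 conditions and had 9 and 13 summed counts in WM164 MAFG. IGF2-AS overlaps IGF2 on the opposite strand, and its reads cannot be told from those of IGF2 unless counting used the strand.

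**Figure D3:**
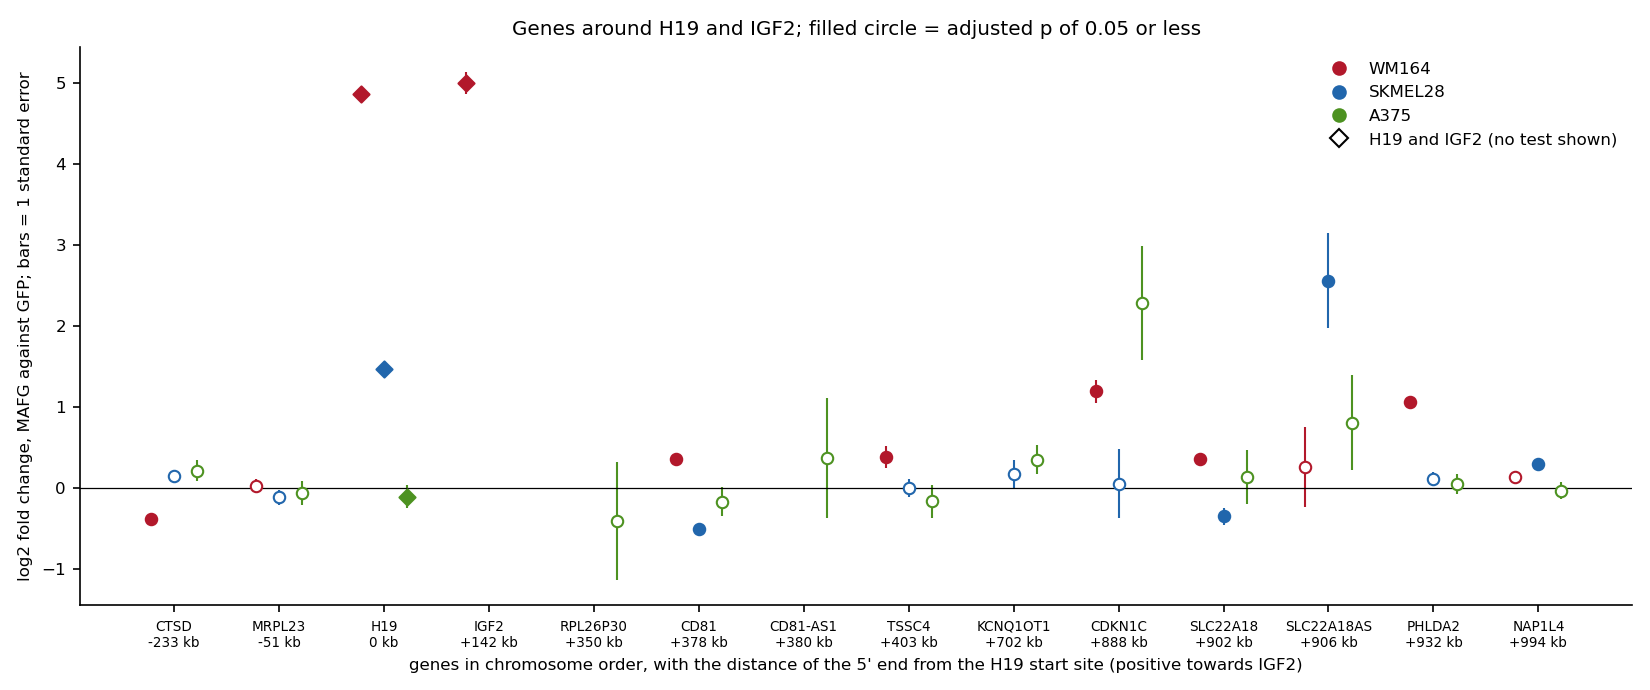
Log2 fold change (MAFG against GFP, bars 1 standard error) of each tested gene around H19 and IGF2, by distance of its 5′ end from the H19 start site, with filled circles for an adjusted p of 0.05 or less and diamonds for H19 and IGF2, for which no test is shown. In WM164, H19 and IGF2 lie near 5, CDKN1C and PHLDA2 near 1, and MRPL23, between CTSD and H19, at 0.02. The filled circle of SLC22A18AS in SKMEL28, at 2.56, is not read, since the gene passed the low-count filter through its MAFG libraries only.

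The receptors showed little change. IGF1R, the signalling receptor, had mean levels of 293 and 280 CPM (GFP and MAFG) in WM164, 270 and 253 in SKMEL28 and 103 and 107 in A375, and its log2 fold changes of −0.06 (SE 0.06), −0.10 (SE 0.06) and 0.04 (SE 0.11) were all small. IGF2R, the receptor that clears IGF2, differed most between lines. With GFP it was 5.84-fold higher in SKMEL28 than in A375 and 2.52-fold higher in WM164 than in A375. In SKMEL28 it was at 707, 744 and 702 CPM with GFP and at 578, 620 and 585 CPM with MAFG, without overlap, a log2 fold change of −0.27 (SE 0.06). In WM164 and A375 the values were 0.01 (SE 0.05) and −0.09 (SE 0.10).

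Of the RNA-binding proteins, IGF2BP1 was called in SKMEL28 alone. It is an oncofetal protein that stabilizes mRNAs such as MYC, and it was by far highest in A375, at a mean of 186 CPM with GFP against 11.9 in WM164 and 5.80 in SKMEL28. In SKMEL28 it was at 5.03, 5.02 and 7.35 CPM with GFP and at 2.002, 1.36 and 1.16 CPM with MAFG (151, 102 and 213 against 60, 38 and 31 counts). Every MAFG library was below every GFP library, and the level was 3.82-fold lower (log2 fold change −1.94, SE 0.25). In WM164 the log2 fold change was −0.02 (SE 0.10), with the sign reversed to 0.17 on the log2(TPM + 1) scale, and in A375 it was −0.03 (SE 0.10). IGF2BP3, a related oncofetal protein, was at 76.2, 80.6 and 84.8 CPM in WM164 GFP and at 117, 119 and 125 CPM in WM164 MAFG libraries, without overlap (log2 fold change 0.58, SE 0.06, and 0.92 on the log2(TPM + 1) scale). It differed little in SKMEL28 (−0.04, SE 0.06) and A375 (0.10, SE 0.11). IGF2BP2, which is expressed in many adult tissues, had log2 fold changes of −0.08 (SE 0.05) in WM164, 0.08 (SE 0.06) in SKMEL28 and −0.03 (SE 0.10) in A375, and the first and second of these change sign on the TPM scale.

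Of the binding proteins, IGFBP2 had 69, 18 and 38 counts in SKMEL28 GFP and 850, 800 and 700 counts in SKMEL28 MAFG libraries, or 2.30, 0.886 and 1.31 against 28.4, 28.7 and 26.3 CPM. The level was 17.8-fold higher (log2 fold change 4.16, SE 0.20), which placed IGFBP2 at rank 21 of 15523 tested genes by increase, above H19 at rank 192. It still stayed below the level in the other lines, where the GFP mean was 116 CPM in WM164 and 54.6 CPM in A375. In WM164, IGFBP2 went the other way, from 122, 123 and 102 CPM with GFP to 93.0, 96.7 and 88.5 CPM with MAFG (log2 fold change −0.32, SE 0.07, and −0.17 on the log2(TPM + 1) scale), and in A375 the value was −0.11 (SE 0.13).

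IGFBP5, the neighbour of IGFBP2 on chromosome 2, had the same direction as IGFBP2 in WM164 and SKMEL28 counts, but not in A375. In SKMEL28 it had 0, 2 and 0 counts with GFP and 6, 16 and 1 with MAFG, a ratio of 10.8 with an exact 95% interval of 2.67 to 94.5 for counting error only, while the MAFG libraries differed among themselves by as much as 1 against 16 counts. In A375 it was at 8.78, 7.66 and 9.32 CPM with GFP and at 21.0, 17.1 and 15.4 CPM with MAFG (log2 fold change 1.05, SE 0.15), without overlap. Leaving out 1 library brought this value to between 0.94 and 1.13, and the A375 call was lost without GFP replicate 1 or 2 or MAFG replicate 1 or 2. In WM164, with levels of 123 to 131 CPM with GFP and 107 to 111 CPM with MAFG, the log2 fold change was −0.24 (SE 0.05), but 0.0045 on the log2(TPM + 1) scale.

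IGFBP3, the main IGF carrier of plasma, was higher with MAFG in both lines that express it. It was at 8.47, 8.53 and 7.48 CPM in A375 GFP and at 13.3, 14.8 and 12.7 CPM in A375 MAFG libraries (log2 fold change 0.73, SE 0.14, and 0.48 on the log2(TPM + 1) scale), and at 15.2, 14.3 and 10.3 against 25.1, 21.4 and 25.2 CPM in SKMEL28 (0.85, SE 0.13). The arms did not overlap in either line. In A375 IGFBP3 was not past the adjusted threshold with at least 10 counts in every library, with the replicate block, on the TPM scales or without any single library other than MAFG replicate 1. In WM164, IGFBP3 had 0 counts in every GFP library and 2, 4 and 0 counts with MAFG, so that all WM164 libraries were at or near the floor.

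A gene counted as called where its absolute log2 fold change exceeded 1 and its adjusted p was at most 0.05. In WM164, 2 of the 9 members tested were called (H19 and IGF2, both higher), beside 6.94% of the 15919 genes tested. In SKMEL28 it was 3 of 8 (H19 and IGFBP2 higher, IGF2BP1 lower) beside 4.74%, and in A375 1 of 9 (IGFBP5 higher) beside 0.665%. By adjusted p alone, 5 members passed in WM164 (31.8% of genes), 5 in SKMEL28 (29.9%) and 2 in A375 (0.843%). In WM164 the count fell to 3 with all libraries in one model and on the TPM scales, without IGFBP2 and IGFBP5. In SKMEL28 it fell to 4 on the TPM scales, without IGF2BP1, whose mean there was 0.927 TPM with GFP and 0.22 TPM with MAFG. In A375 it was 0 with the replicate block, on the TPM scales and without GFP replicate 1 or 2 or MAFG replicate 2, and 1 where every library had to hold 10 counts or where GFP replicate 3 or MAFG replicate 3 was left out. The arms did not overlap for 5, 6 and 2 tested members, beside 43.4%, 43% and 12.3% of all tested genes. Since the members were selected with these contrasts known, nothing is read from the shares. The tested members had a median log2 fold change of −0.02 (WM164), 0.02 (SKMEL28) and −0.03 (A375), beside medians over all tested genes of −0.0015, −0.0080 and −0.00037.

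**Figure D4:**
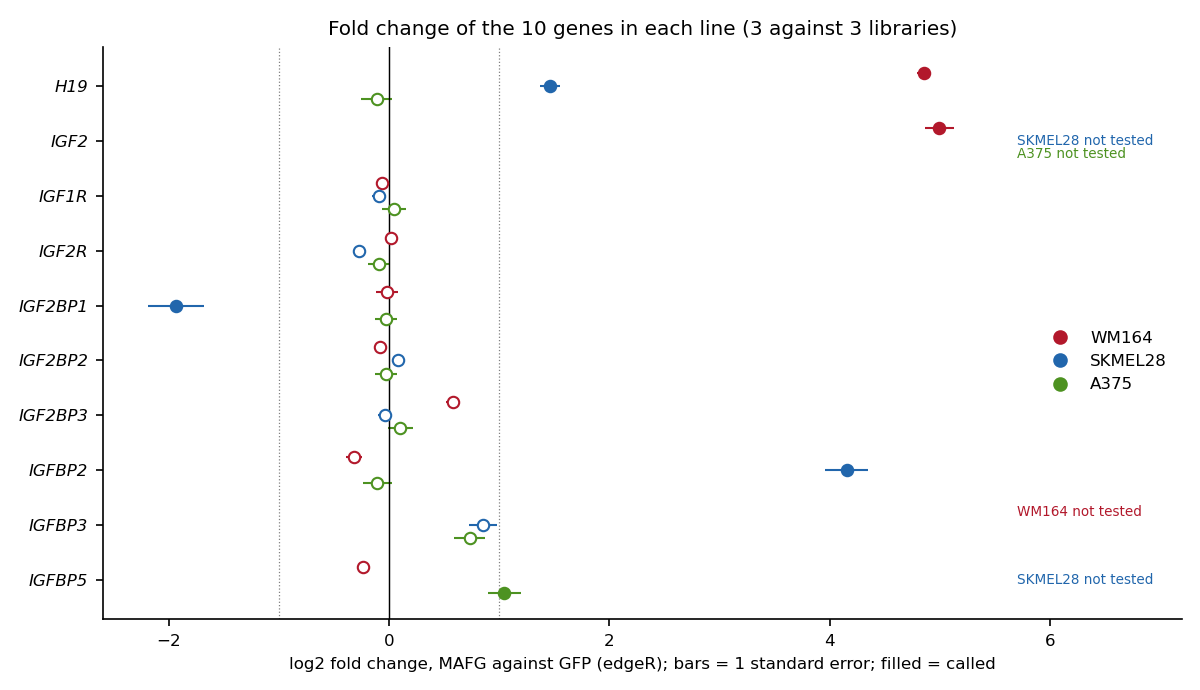
Log2 fold change, MAFG against GFP, of the 10 genes in each line, with bars of 1 standard error, filled points for called genes, dotted lines at the limits of 1 and −1, and a note where a gene was not tested. H19 and IGF2 lie near 5 in WM164, IGFBP2 at 4.16 and IGF2BP1 at −1.94 in SKMEL28, and most other values lie between the dotted lines.

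Control cells of the 3 lines differed in many of the members, as they did in many of all genes. Members that passed the filter in only 1 of the lines compared were left out of the counts, since they entered the model of 18 libraries where they are high. The shares of all genes still include such genes. Counts and shares below therefore rest on different filters, and nothing is read from comparing them. Between GFP libraries, 7 of 8 members were called between WM164 and A375 (46.7% of 18767 genes), 5 of 8 between SKMEL28 and A375 (43.8%) and 4 of 7 between WM164 and SKMEL28 (28.7%). With GFP, A375 had the highest mean level of IGF2BP1 and the lowest of both receptors, and WM164 had the highest of H19, IGF2, IGFBP2 and IGFBP5 and no IGFBP3 counts. In the same model of 18 libraries, the response to MAFG was called different for 3 of 7 members between WM164 and SKMEL28 (H19, IGF2BP1 and IGFBP2, beside 5.1% of genes), for 2 of 8 between WM164 and A375 (H19 and IGFBP5, beside 4.39%) and for 3 of 8 between SKMEL28 and A375 (H19, IGF2BP1 and IGFBP2, beside 4.2%). These comparisons share libraries and are not independent.

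The rest of the pathway was described with a list of 26 further IGF and insulin signalling genes. In WM164, 15 were tested. By edgeR's adjusted p, 6 were higher and 3 lower, each by less than 1 on the log2 scale, beside 31.8% of all genes tested in WM164. With DESeq2, 7 passed, without INSR and GRB10. The higher genes were IGFBP6 (log2 fold change 0.62), STC1 (0.56), which encodes stanniocalcin, an inhibitor of the IGFBP protease PAPP-A, HTRA1 (0.50), a secreted protease, the receptor adaptors GRB10 (0.21) and SHC1 (0.39), and the transcription factor FOXO1 (0.55). The lower genes were INSR (−0.28), the insulin receptor, IGFBP7 (−0.91) and PIK3R1 (−0.62), the regulatory subunit of PI3 kinase. The list median was 0.09.

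In SKMEL28, 2 of 15 tested genes were higher and 5 lower, beside 29.9% of all genes tested. STC1 was at 4.50, 5.07 and 6.04 CPM with GFP and at 17.2, 15.7 and 16.0 CPM with MAFG (log2 fold change 1.65, SE 0.14, edgeR adjusted p = 2.80e-07), and HTRA1 was higher by 0.17. GRB14, an adaptor that inhibits the insulin receptor, had 53, 26 and 48 counts with GFP and 19, 12 and 16 with MAFG (−1.49, SE 0.40, edgeR adjusted p = 0.0105). IRS1 (−0.32), the main substrate of both receptors, SHC1 (−0.51), PIK3R1 (−0.33) and IGFBP7 (−0.42) were also lower. SHC1 passed in opposite directions in the MAFG contrasts of WM164 and SKMEL28, while PIK3R1 and IGFBP7 were lower in both. IGF1, the other ligand of IGF1R, had 9, 4 and 7 counts with GFP and 18, 19 and 23 with MAFG in SKMEL28 and 0 counts in the other lines. The SKMEL28 list median was −0.06.

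In A375, 0 of 18 tested genes passed the adjusted threshold with edgeR or DESeq2, and 3, GRB10, PAPPA and STC1, had an unadjusted edgeR p under 0.05, of which PAPPA passed the filter through its GFP libraries only. IGFBP4 was detected in A375 alone (1915 to 2861 counts), and INS, the insulin gene, had 0 counts in every library. Across the lists of neighbours, pathway, imprinted and let-7 genes, 24 genes passed in WM164 and 11 in SKMEL28. Among them, MYCN in WM164 and SLC22A18AS in SKMEL28 passed the low-count filter through their MAFG libraries only, so their tests are not read. All had the same direction with DESeq2 size factors and, where TPM values allowed a fit, on both TPM scales. DESeq2 size factors moved the median of all genes only from −0.0015 to −0.0028 in WM164 and from −0.0080 to −0.0040 in SKMEL28. The same direction with these size factors could therefore hardly fail.

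**Figure D5:**
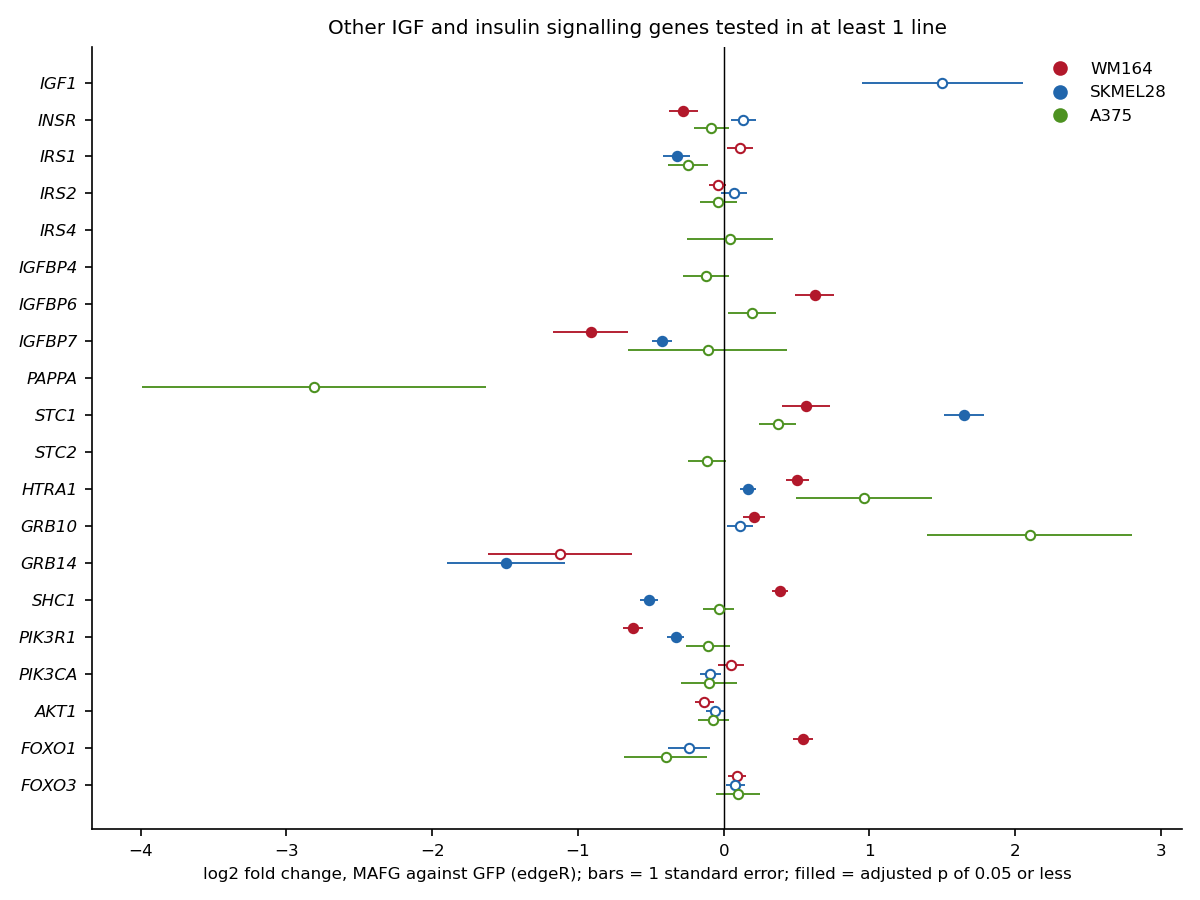
Log2 fold change, MAFG against GFP, with bars of 1 standard error, of the 20 further IGF and insulin signalling genes tested in at least 1 line, filled where the adjusted p was 0.05 or less. STC1 (1.65) and GRB14 (−1.49) in SKMEL28 lie outside 1 and −1 among the filled points, and the A375 points are all open.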

How the data were processed

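RNA from WM164, SKMEL28 and A375 cells (3 GFP and 3 MAFG libraries each) was sequenced. The deposited values are raw read counts per gene and TPM, which the authors scaled per library. The submitters' processing notes name cutadapt 1.8.1, STAR 2.7.7a, RSEM 1.3.0, DESeq2 and GRCh38, while the methods name featureCounts for counting. The labels and the methods name different library kits, one not stranded and one strand-specific, so the use of strand is open and genes that overlap on opposite strands are uncertain. The annotation release is not given in the sources used here. Of 58825 identifiers, 58472 (99.4%) matched GENCODE release 44, which gave positions, and 0 sample columns were unused.

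Each line was fitted on the counts of its 6 libraries with edgeR 4.0.16 in R 4.3.3 (TMM, filterByExpr, quasi-likelihood test, Benjamini-Hochberg adjustment over all tested genes). Contrasts between lines came from one edgeR model of 18 libraries, whose TMM factors also gave CPM. The SE is the absolute log2 fold change divided by the square root of F. A gene with at most 3 counts per library was at the floor. Exact intervals are Clopper-Pearson. The relation of IGF2 and H19 was tested by permuting deviations from condition means within conditions (SciPy 1.17.1). The edgeR and DESeq2 fits of single lines and the permutation test were first tried on simulated data. Replicate libraries correlated at 0.970 to 0.985 (log2 CPM), and their mean chi-square per gene of 5.90 to 96.7 was above the value near 1 that counting noise gives, so that replicates differed by more than this noise.

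The members and all gene lists were chosen with earlier results of these data known. Named genes were the members, MAFG, list genes called in at least 1 line, genes of the H19-IGF2 region with counts and the 5 genes most correlated with H19 or with IGF2. Other list genes are named because they passed the adjusted threshold or had counts in some lines only, and were chosen after their values were seen. Alternatives were DESeq2 1.42.0, DESeq2 size factors, other count filters, all libraries in one fit, a replicate block, limma 3.58.1 on log2(TPM + 1) or log2(TPM + 0.1), and each library left out. The lists were IGF and insulin signalling, the H19-IGF2 region, other imprinted genes, let-7 and oncofetal genes, and 6 lists of cell type markers. Some listed genes and a promoter sequence are not reported here.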

Additional observations from a re-analysis of the deposited data

Results flagged for a closer look

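Responses to MAFG that differed between lines were singled out by contrasts in the edgeR model of 18 libraries, on the log2 scale. For H19 the response was higher in WM164 than in SKMEL28 by 3.39 (SE 0.12) and than in A375 by 4.96 (SE 0.12), and higher in SKMEL28 than in A375 by 1.57 (SE 0.12). For IGF2 it was higher in WM164 than in SKMEL28 by 5.08 (SE 0.71), with 30 summed counts in either SKMEL28 arm. IGF2 failed the low-count filter in SKMEL28 and entered the model of 18 libraries through its WM164 counts. This IGF2 difference is therefore only a description. For IGF2BP1 the WM164 response was above that of SKMEL28 by 1.92 (SE 0.22), and the SKMEL28 response minus that of A375 was −1.91 (SE 0.21). For IGFBP2 the WM164 response minus that of SKMEL28 was −4.47 (SE 0.24), and the SKMEL28 response exceeded that of A375 by 4.25 (SE 0.24). For IGFBP5 the WM164 response minus that of A375 was −1.29 (SE 0.22). These members were chosen with their responses known, and no p is given for them.

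Among the other listed genes, the response of STC1 in WM164 minus that in SKMEL28 was −1.08 (SE 0.24, edgeR adjusted p = 0.00435), and in SKMEL28 minus A375 it was 1.27 (SE 0.24, edgeR adjusted p = 0.00138). For GRB10 the difference was −1.89 (SE 0.40, edgeR adjusted p = 0.00356) for WM164 minus A375 and −1.99 (SE 0.40, edgeR adjusted p = 0.00264) for SKMEL28 minus A375, where A375 GFP libraries held 12, 31 and 2 counts. For CDKN1C it was −2.22 (SE 0.51) for SKMEL28 minus A375, with 3 to 6 counts in the A375 GFP libraries. In A375, CDKN1C passed the low-count filter through its MAFG libraries only, so the test of this difference is not read.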

How the results depend on the processing

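Genes called in WM164 numbered 1105 and came to 734 with at least 10 counts in every library, 384 on log2(TPM + 1) and 617 on log2(TPM + 0.1). In SKMEL28 736 became 226 and 411 on the same TPM scales. In A375 105 became 173 with DESeq2, 216 without a filter, 64 with at least 10 counts, 311 with all libraries in one fit, 64 with the replicate block, and 19 and 15 on the TPM scales. Leaving out 1 library gave 1051 to 1103 in WM164, 678 to 726 in SKMEL28 and 55 to 153 in A375. The 1 member called in A375, IGFBP5, was lost with the replicate block (log2 fold change 1.04) and on both TPM scales (0.46 and 0.70), where the count was 0, and leaving out 1 library gave 0 to 1. The replicate numbers did not pair the libraries. Correlations between same-numbered libraries were −0.03 to 0.01, and the highest between differently numbered ones were 0.007 to 0.050. These are not correlations of expression levels, which were 0.970 to 0.985 between replicate libraries. The replicate block changed no other member call. The TPM scales moved the median of all genes by 0.14 in WM164, −0.14 in SKMEL28 and −0.10 in A375, and on log2(TPM + 1) and log2(TPM + 0.1) the sign turned for IGF1R (0.18 and 0.18), IGF2BP1 (0.17 and 0.31), IGF2BP2 (0.10 and 0.10) and IGFBP5 (0.0045 and 0.0048) in WM164, IGF2BP2 in SKMEL28 (−0.14 and −0.14) and IGF1R in A375 (−0.094 and −0.0997). Leaving out 1 library turned the sign of values near 0, with ranges of −0.045 to 0.00045 for IGF2BP1 and −0.015 to 0.030 for IGF2R in WM164, and −0.077 to 0.0084 for IGF2BP2, −0.0015 to 0.12 for IGF1R and −0.0996 to 0.029 for IGF2BP1 in A375. The correlation of IGF2 with H19 turned positive in WM164 alone (0.356) and SKMEL28 alone (0.0967). The correlation without the 2 farthest libraries was also computed with Spearman's rho, which was added after the data were seen. The cause of these changes was not tested, beyond the smaller number of genes or libraries in some of them. Low counts limit IGF2 in SKMEL28 and A375, IGFBP5 in SKMEL28 and IGFBP3 in WM164.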

Other observations

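Imprinted genes outside the members were followed with a list of 18 genes. In WM164, 6 of 9 tested were higher with MAFG and 0 lower (edgeR, adjusted p at most 0.05). Of all genes tested in this line, 31.8% passed. The 6 genes were CDKN1C and PHLDA2, given above, PEG10 (log2 fold change 0.35), SGCE (0.56), GNAS (0.24) and ZDBF2 (0.27). DESeq2 tested 11 genes of the list, and 7 passed, these 6 and DLK1. DLK1 failed the low-count filter of edgeR and had at most 2 counts with GFP, so its DESeq2 result is not read. DLK1, which encodes a fetal membrane protein of another imprinted cluster, had 2, 0 and 0 counts with GFP and 14, 9 and 20 with MAFG in WM164 and 0 counts in the other lines. In SKMEL28, 0 of 9 and in A375 0 of 11 passed with edgeR and with DESeq2, and 1 and 3 had an unadjusted edgeR p under 0.05. Medians of the list were 0.27 (WM164), −0.08 (SKMEL28) and 0.05 (A375).

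H19 has been described as a partner of let-7 microRNAs, and a list of 13 let-7 and oncofetal genes was examined for that reason. In WM164, MYCN, a let-7 target in development, had 0 counts in every GFP library and 60, 29 and 47 with MAFG, at least 14.3-fold higher against a floor of 3 counts per library. It passed the low-count filter through its MAFG libraries only, so its test is not read. HMGA2 (log2 fold change 0.33), ARID3B (0.47) and DICER1 (0.48) were also higher and HMGA1 (−0.44) lower by edgeR's adjusted p among the other 5 tested, beside 31.8% of all genes. In SKMEL28 0 of 6 and in A375 0 of 7 passed with edgeR. In each line 2 had an unadjusted edgeR p under 0.05. With DESeq2, 1 of 7 tested passed in SKMEL28 and 1 of 8 in A375. LIN28B, a repressor of let-7 maturation, had 0 counts in WM164 and 98 to 540 in the other lines. Transcript H19-201 (2396 bases) held 0 matches to the let-7 seed, beside 15.8% of 31605 transcripts of like length with at least 1, which says only that these letters are not in it.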
